A study of Drosophila melanogaster with 4 samples.

Results

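The genes described here encode the aminoacyl-tRNA synthetases of Drosophila melanogaster, chosen by symbol: an amino acid code followed by RS, with the suffix -m for the form that works in mitochondria. The code names the amino acid that the enzyme joins to its tRNA. Probe sets that name exactly 1 gene measured 30 of them, of 10844 genes named in the whole data set, and 16 were cytosolic and 14 mitochondrial forms. The RefSeq gene table holds 33 genes under the same symbol rule, and AspRS, MetRS and AlaRS-m were not analysed here. For LeuRS, SerRS, TyrRS and MetRS-m, which had more than 1 probe set, the one with the highest mean stands for the gene. The data come from a single group of 4 arrays, each for a sample of total RNA from whole adult flies. All flies had eaten standard food as larvae until early in their last larval stage and food without yeast, their main protein source, from then until 4 days of adult age. They were killed just before part of their cohort received yeast again, so every library described here stands for yeast-deprived flies and none for fed ones. The labels order the samples as hours -4, -3, -2 and -1, named libraries 1, 2, 3 and 4 below. That order was assigned for the study's time-course analysis, and all 4 samples precede its start. The labels do not give the strain, the sex, the number of flies per sample or whether the samples were separate cultures, so a p-value measures the spread between these samples, which may be technical.

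Aminoacyl-tRNA synthetases join each amino acid to the tRNA that reads its codons, and elongation factors then carry the charged tRNA to the ribosome. Animal cells keep a cytosolic set and a mitochondrial set, both encoded in the nucleus, and the mitochondrial enzymes are imported to charge the tRNAs of the mitochondrial genome. The enzymes fall into class I and class II, which have unrelated catalytic folds. When amino acids run short, uncharged tRNA activates the kinase Gcn2, which raises translation of the transcription factor ATF4, called crc in flies. In mammals ATF4 raises transcription of many synthetase genes. In human cells several cytosolic synthetases sit in one multi-synthetase complex built on the scaffold proteins AIMP1, AIMP2 and AIMP3.

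The values are intensities on a linear scale, normalized between arrays by the authors, with a median of 112 to 113 in each library. As a measure of background, 23 control probe sets for sequences absent from flies had a median of 46.1 to 48.7 per library and a highest single value of 119 to 133. Library 3 stands apart: all 14 measured markers of the male reproductive tract had their highest value there, with a summed intensity of 4899 against 1867, 1901 and 1946 in libraries 1, 2 and 4. Of these markers 5, 5, 2 and 4 lay at or below an intensity of 57.1 in libraries 1, 2, 3 and 4. Acp29AB and Acp26Aa did so in every library, so their order between libraries carries little weight. Mst98Ca was only slightly higher in library 3, at 533 against 514 in library 2. The 8 measured ovary and yolk markers summed to 2375, 2542, 2170 and 2256 in libraries 1, 2, 3 and 4, and 6 of them were highest in library 2. Among the 6, Yp3 was almost level with library 1 (369.61 against 369.44) and Vm26Aa with library 4 (352.56 against 352.44). Vm34Ca and Cp36 were highest in library 4. Of 9 measured markers of adult tissues, the 8 for muscle, photoreceptors, gut and fat body lay above the highest control in all libraries, and the neuronal marker elav did not. The 9 summed to 12095, 11911, 10119 and 10977 in libraries 1, 2, 3 and 4. In library 3 against the rest, limma called the gut protease gene Jon74E higher (0.83 on the log2 scale, adjusted p = 0.00229) and the fatty acid synthase gene FASN1 lower (-0.61, adjusted p = 0.0227). The other gut markers went the opposite way to Jon74E in library 3, yip7 by -0.31 and alphaTry by -0.43 on the log2 scale. The other fat body marker, Lsp2, differed by -0.04, and limma did not call these genes. In whole animals, fewer cells of a type and less RNA per cell cannot be told apart.

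Cytosolic synthetase genes were more often above background than mitochondrial ones. In all 4 libraries, 11 of 16 cytosolic forms (68.8%) and 3 of 14 mitochondrial forms (21.4%) exceeded the highest control probe set, against 39.9% of all 13966 probe sets. At the other end, 1 cytosolic form, CysRS, and 5 mitochondrial forms, ArgRS-m, GluRS-m, IleRS-m, LeuRS-m and ValRS-m, lay at or below the median control in every library, compared with 12.0% of all probe sets. The response of a probe set depends on its sequence, so these counts describe which genes the array could measure, and levels of different genes are not ranked. The family was also grouped by the class of the enzyme, after the values were seen. The highest control was exceeded in all libraries by 9 of 12 class II genes and 5 of 17 class I genes. These counts mix cytosolic and mitochondrial forms. Among cytosolic forms alone it was exceeded by 7 of 7 class II and 4 of 8 class I genes. GluProRS, which joins a class I and a class II enzyme in 1 protein, did not exceed the highest control in all libraries.

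**Figure D1:**
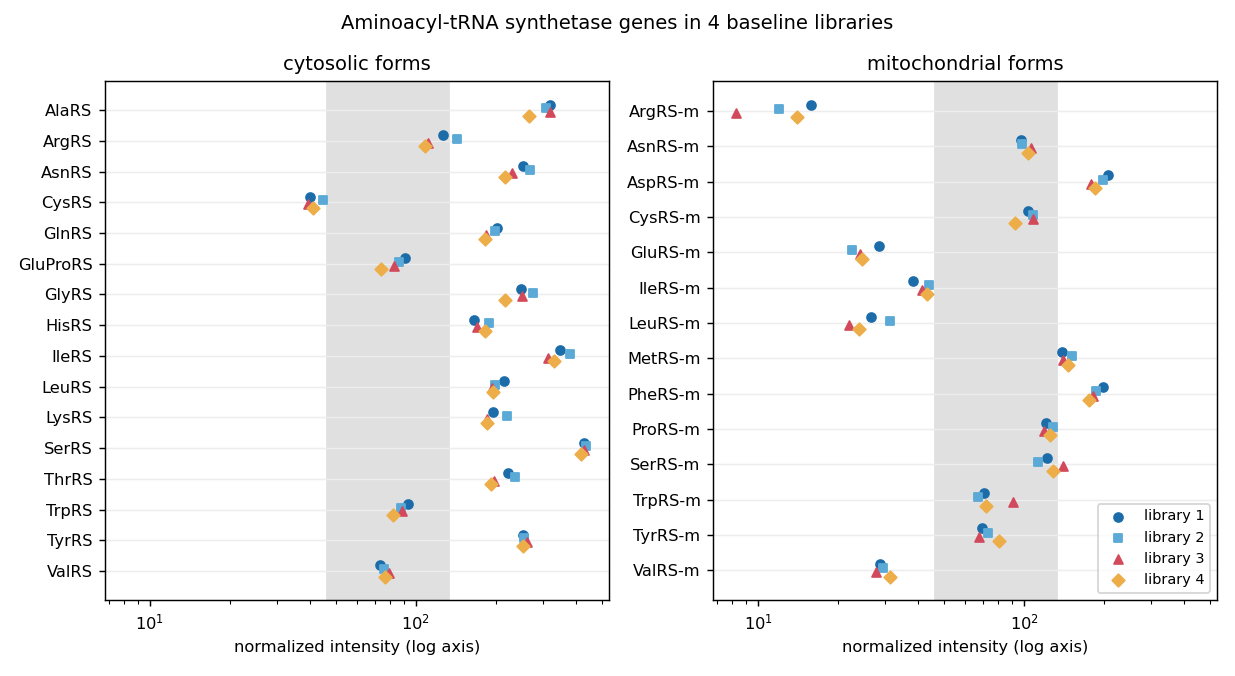
Normalized intensity (log axis) of 16 cytosolic (left) and 14 mitochondrial (right) synthetase genes, with 1 symbol per library; the grey band runs from the lowest median to the highest single value of the negative control probe sets. Right of the band in all libraries are 11 cytosolic genes and the mitochondrial genes AspRS-m, MetRS-m and PheRS-m.

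AlaRS, which charges alanine tRNA and whose mitochondrial partner was not analysed here, had intensities of 318, 308, 318 and 267 in libraries 1, 2, 3 and 4, so library 4 was the low one. GlyRS had 249, 275, 249.9 and 216, highest in library 2 and lowest in library 4. GlyRS and LysRS each serve both compartments from 1 gene in humans, and the RefSeq table holds no -m form of either for the fly. Nor does it hold one of GlnRS, HisRS or ThrRS. Cytosolic means here a symbol without -m, so a gene counted as cytosolic may serve both compartments. LysRS had 195, 219, 185 and 184, with library 2 above the other libraries. ThrRS had 223, 236, 196 and 192 and GlnRS 201, 199, 183 and 182, and in both genes libraries 1 and 2 lay above libraries 3 and 4. HisRS had 166, 189, 169.6 and 181, lowest in library 1. GluProRS, which charges both glutamate and proline tRNAs, had 91.0, 86.7, 82.8 and 74.1; it stayed within the range of the controls in all libraries and below the brightness filter of the tests.

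For 9 amino acids both a cytosolic and a mitochondrial gene of the same code were measured. In 5 of these pairs (Asn, Ile, Leu, Ser and Tyr) the cytosolic form was above the highest control in all libraries and the mitochondrial form was not. In the other 4 (Arg, Cys, Trp and Val) neither was. AsnRS had 254, 268, 230.4 and 217 in libraries 1, 2, 3 and 4, with libraries 1 and 2 above libraries 3 and 4. AsnRS-m had 97.7, 98.0, 106 and 103 and ran the other way, with libraries 3 and 4 the higher ones. SerRS was among the steadiest genes, at 427, 437, 430.1 and 417. SerRS-m had 122, 112, 139.9 and 129 and was highest in library 3 and lowest in library 2. These are the 2 pairs of which both forms were bright enough to test, and no difference between partners was tested. ArgRS had 126, 143, 111 and 109, highest in library 2, while ArgRS-m, at 8.28 to 15.8, stayed below the median control. IleRS had 348, 380.0, 315 and 329 and was highest in library 2, with IleRS-m at 38.4 to 43.9. LeuRS had 214, 198, 193 and 195, highest in library 1, and LeuRS-m 22.0 to 31.5. TyrRS had 252, 254, 262 and 253 and TyrRS-m 69.7, 73.4, 67.6 and 80.2. By this probe set the cytosolic gene kept within a factor of 1.04, and by its other one within 1.21. The mitochondrial gene lay within the range of the controls. ValRS (73.3 to 79.0) and TrpRS (81.8 to 93.3) also lay within that range, and TrpRS-m had 70.4, 67.0, 91.2 and 72.1, highest in library 3. In the cysteine pair CysRS, at 39.2 to 44.9, was below the median control, whereas CysRS-m, at 103, 108, 108 and 92.5, was above the median control in all libraries. The probe sets of CysRS and LeuRS carry the name ending that Affymetrix uses for probes shared by several transcripts, so their signal may not come from 1 gene alone.

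The mitochondrial genes above the highest control in all libraries were AspRS-m, MetRS-m and PheRS-m. AspRS-m had 207, 198, 179 and 185 in libraries 1, 2, 3 and 4, with libraries 1 and 2 above the others. PheRS-m had 198, 187, 182 and 175 and was lower at each step of the labelled order, with all its values within a factor of 1.13. MetRS-m had 139, 152, 139.7 and 147 and was highest in library 2. ProRS-m, with 121, 128, 118 and 125, was also highest there, but lay close to the highest control. GluRS-m, next to TyrRS in the gene order of the RefSeq table, had 22.6 to 28.6, under the median control throughout, while TyrRS was above the highest control in all libraries.

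Of the 30 genes, 19 passed a filter on mean brightness and were tested, 12 cytosolic and 7 mitochondrial, among 8379 probe sets in all. The other 11 were CysRS, GluProRS, TrpRS, ValRS and the mitochondrial ArgRS-m, GluRS-m, IleRS-m, LeuRS-m, TrpRS-m, TyrRS-m and ValRS-m. The highest library of the tested genes exceeded their lowest by 1.04 to 1.32-fold, with a median of 1.15-fold, beside 1.12-fold over all tested probe sets. The coefficient of variation over the 4 libraries had a median of 8.16% for tested cytosolic and 5.22% for tested mitochondrial genes, beside 5.24% over all tested probe sets. The SD of log2 intensity had a median of 0.10 over all 16 cytosolic and 0.06 over all 14 mitochondrial genes, beside 0.07 over all probe sets, and dim genes held at the floor have an SD of 0. Over tested genes only, it was 0.12 for cytosolic and 0.075 for mitochondrial genes, beside 0.076. The coefficient of variation reached 13.1% in ArgRS and was as low as 1.65% in TyrRS and 1.95% in SerRS. The other probe set of TyrRS, at a mean of 250, had 9.58%, and that of SerRS 2.57%, so the low value for TyrRS holds for 1 of its probe sets only. In means, ArgRS had 122 ± 16.0, ThrRS 212 ± 21.2, GlyRS 248 ± 24.0 and AsnRS 242 ± 22.9, against 428 ± 8.33 for SerRS and 255 ± 4.21 for TyrRS (SD, n = 4). In the limma-based test of each variance against that of equally bright probe sets, 0 of 19 members passed at an adjusted p under 0.05, and 0.274% of all tested probe sets did. At an unadjusted p under 0.05 there was 1 member, ArgRS, whose SD of log2 intensity was 2.24 times the expected one (limma-based adjusted p = 0.843). Over all tested probe sets 5.53% had an unadjusted p that low, so 1 of 19 is near the background. The other genes with the smallest p were, in this order, ThrRS, GlyRS, AsnRS, SerRS-m, LysRS, AlaRS and IleRS, with ratios of observed to expected SD from 1.34 to 1.82. Of these 8 genes, 7 were cytosolic, beside 12 of the 19 tested genes. The observed SD exceeded the expected one in 8 of 12 tested cytosolic and 3 of 7 tested mitochondrial genes, beside 43.9% of all tested probe sets.

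**Figure D2:**
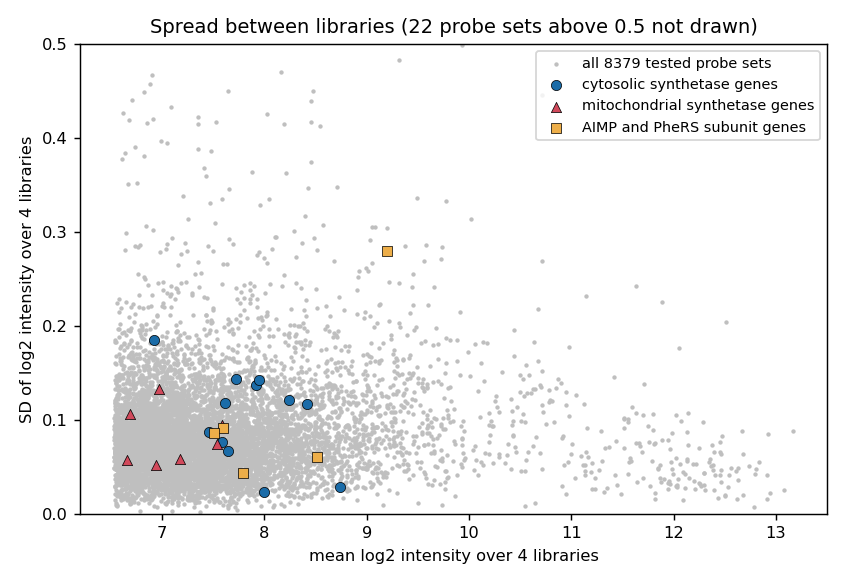
SD of log2 intensity over the 4 libraries against mean log2 intensity for all 8379 tested probe sets (grey; 22 above the top of the axis are not drawn), with the tested cytosolic and mitochondrial synthetase genes and the AIMP and PheRS subunit genes marked. The synthetase genes lie inside the grey cloud, ArgRS uppermost at 0.19, and the square at 0.28 is AIMP2.

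Small deviations of the tested cytosolic genes went the same way in many of them. Library 2 held the highest value of 8 of 12 tested cytosolic and 2 of 7 tested mitochondrial genes, beside 26.8% of all tested probe sets. Library 4 held the lowest value of 8 of 12 and 2 of 7, beside 32.8%, and the highest value of 0 of 19 members, beside 24.8%. Over all 16 cytosolic genes, the median log2 deviation from a gene's own mean was 0.04, 0.06, -0.03 and -0.08 in libraries 1, 2, 3 and 4. Over all 14 mitochondrial genes it was 0.00 in each library, since dim genes lie at the floor of 57.1. With tested genes only, a setting chosen after the values were seen, the cytosolic medians were 0.04, 0.13, -0.06 and -0.08 and the mitochondrial ones -0.03, 0.05, -0.03 and 0.02. For all tested probe sets they were 0.01, 0.01, -0.01 and -0.01. Without library 3 the medians over all cytosolic genes were 0.02, 0.05 and -0.10 in libraries 1, 2 and 4. In 7 of 12 tested cytosolic genes both libraries 1 and 2 lay above both libraries 3 and 4, beside 28.3% of all tested probe sets, and 0 showed the opposite arrangement, beside 17.2%. Of the 7 tested mitochondrial genes 2, AspRS-m and PheRS-m, showed the first arrangement and 2, AsnRS-m and SerRS-m, the opposite one. The genes share the same 4 arrays, so these counts are descriptions of these libraries without a test.

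**Figure D3:**
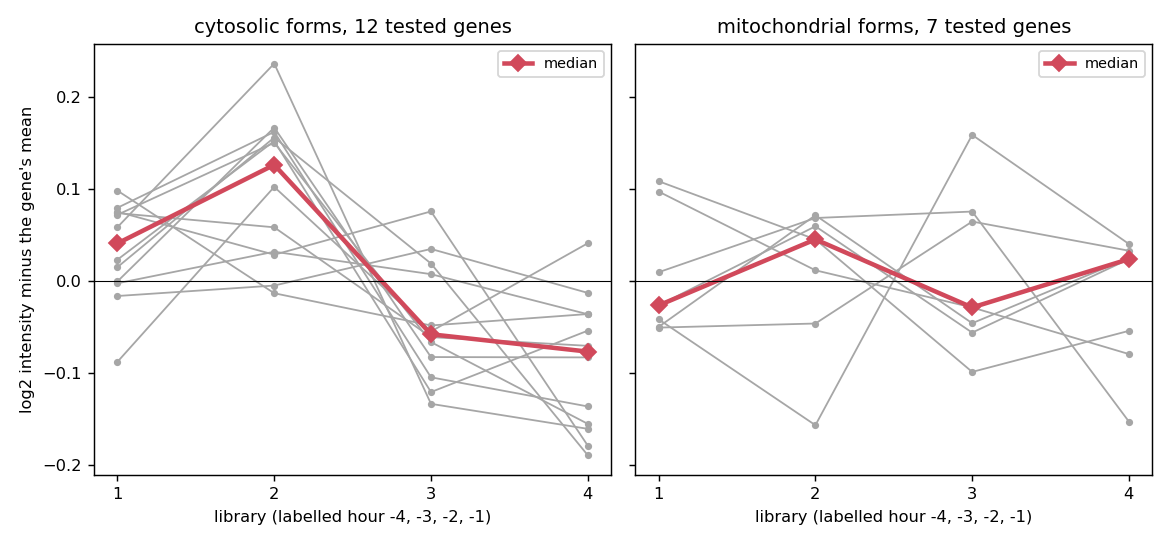
Log2 intensity minus each gene's mean over the 4 libraries for the 12 tested cytosolic (left) and 7 tested mitochondrial (right) genes, with the median in red; the x axis gives the libraries in labelled order. The cytosolic median peaks in library 2 at 0.13 and is lowest in library 4 at -0.08, and the mitochondrial median stays within 0.05 of 0.

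Other measures differed between the same libraries. The ovary and yolk markers had median deviations of 0.01, 0.18, -0.06 and -0.10 in libraries 1, 2, 3 and 4. The adult tissue markers summed higher in libraries 1 and 2 (12095 and 11911) than in libraries 3 and 4 (10119 and 10977). The gut genes yip7 and alphaTry, with means of 4256 and 3212, gave the largest part of these sums. Taken singly, 3 of 9 adult tissue markers had libraries 1 and 2 above libraries 3 and 4, beside 28.3% of all tested probe sets. In library 3, 4 of 9 had their highest value. Of the 8 ovary and yolk markers, 5 had libraries 1 and 2 above libraries 3 and 4, and 1 showed the opposite arrangement. Control probe sets at the 3' end of a transcript exceeded those at its 5' end, a sign of RNA quality, by 1.14, 1.05, 1.44 and 1.40 on the log2 scale in the same order. The spiked hybridisation controls had 0.927, 1.59 and 1.29 times their library 1 intensity in libraries 2, 3 and 4. The part of these in the synthetase pattern was not tested.

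No single library set a synthetase gene apart in limma when each was compared with the mean of the other 3; the lone library is assumed there to vary like the others. In library 2, 0 of 19 members passed, beside 0.107% of all tested probe sets, and 2 had an unadjusted p under 0.05, both higher, as had 2.83% of all tested probe sets in either direction and 1.65% on the high side. ArgRS was higher in library 2 by 0.31 ± 0.11 on the log2 scale (SE, 1 library against 3; 95% interval 0.07 to 0.56; limma adjusted p = 0.999). LysRS differed by 0.22 ± 0.09, with the same adjusted p, and SerRS-m had the smallest p on the low side at -0.21 ± 0.10. In library 4, 0 members passed, beside 0.0119%, and 3 had an unadjusted p under 0.05, all lower, as had 8.63% of all tested probe sets in either direction and 5.79% on the low side. They were AlaRS at -0.24 ± 0.08, GlyRS at -0.25 ± 0.09 and CysRS-m at -0.20 ± 0.08 (limma adjusted p = 0.554 for each). On the high side HisRS had the smallest p, an unadjusted 0.57 for a log2 difference of 0.05 ± 0.09. In libraries 1 and 3, 0 members passed and 0 had an unadjusted p under 0.05 in limma, beside 0% and 0.704% of all tested probe sets called and 2.05% and 6.46% at that unadjusted p. The smallest p on the high and the low side belonged to AspRS-m (a log2 difference of 0.14) and HisRS (-0.12) in library 1. In library 3 it belonged to SerRS-m (0.21) and IleRS (-0.16). These comparisons use the brightest probe set of each gene. Of the dimmer probe sets, the largest differences were -0.23 in library 1, for MetRS-m, and 0.26 in library 3, for TyrRS.

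Leaving out library 3 or library 4 changed some of these calls. Without library 3, library 4 was lower than libraries 1 and 2 in 4 of 19 members, all cytosolic, beside 6% of all tested probe sets called in that setting. These were ArgRS (-0.31), AsnRS (-0.27), GlyRS (-0.27) and ThrRS (-0.26), on the log2 scale, with limma adjusted p from 0.0284 to 0.0378. Without library 4, library 3 differed from libraries 1 and 2 in 2 members, beside 6.02%: ArgRS was lower (-0.28) and SerRS-m higher (0.26). The male markers summed to 4899 in library 3, and their part in these differences was not tested. The shares of 6% and 6.02% count calls in either direction. In both settings the spread comes from libraries 1 and 2 alone.

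Across the labelled hours, 0 of 19 members had a slope that passed in limma, beside 0% of all tested probe sets. At an unadjusted p under 0.05 there were 2 of 19, both cytosolic and with slopes below 0, which is near the background of 11.6% of all tested probe sets in either direction and 8.55% with slopes below 0. AsnRS changed by -0.09 ± 0.03 per labelled hour on the log2 scale (SE, n = 4; 95% interval -0.17 to -0.01), and ThrRS by -0.09 ± 0.04 (limma adjusted p = 0.394 for both). SerRS-m had the smallest p of the positive slopes, at 0.06 ± 0.04. These results are for the brightest probe set of each gene. The dimmer one of MetRS-m had a slope of 0.10 ± 0.03 (limma unadjusted p = 0.0107, adjusted p = 0.358). That of LeuRS had -0.09 ± 0.04 (limma unadjusted p = 0.0396, adjusted p = 0.4195). Those of SerRS and TyrRS had 0.01 ± 0.03 and 0.03 ± 0.05. The slope was below 0 in 10 of 12 tested cytosolic and 3 of 7 tested mitochondrial genes, beside 56.9% of all tested probe sets. A lower value at every step was seen in 1 cytosolic and 1 mitochondrial tested gene, GlnRS and PheRS-m, beside 7.90% of all tested probe sets.

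Where a gene had 2 probe sets, they did not always show the same pattern. For TyrRS the brighter one had 252, 254, 262 and 253 in libraries 1, 2, 3 and 4, and the dimmer one 236, 241, 286 and 237, so library 3 was the highest in both, by a wider margin in the dimmer one. The dimmer probe set of MetRS-m had 97.0, 107, 115 and 119, higher at each step of the labelled order, while the brighter one was highest in library 2. For LeuRS the dimmer probe set had 120.4, 125, 103 and 105, with libraries 1 and 2 above the others, and the brighter one was highest in library 1. Both SerRS probe sets were steady, the dimmer one at 138, 145, 146 and 142.

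Cytosolic synthetases that belong to the human multi-synthetase complex, a grouping applied after the values were seen, were measured as ArgRS, GlnRS, GluProRS, IleRS, LeuRS and LysRS. All except GluProRS passed the brightness filter. In 5 of these 5 tested genes libraries 1 and 2 lay above libraries 3 and 4, beside 28.3% of all tested probe sets. Among the 7 tested cytosolic genes outside the complex, AsnRS and ThrRS showed this arrangement, and AlaRS, GlyRS, HisRS, SerRS and TyrRS did not. No test of the difference was made.

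The scaffold genes of the complex and the subunits of the cytosolic phenylalanine enzyme fall outside the symbol rule and are given beside it. AIMP2 had 705, 623, 601 and 446 in libraries 1, 2, 3 and 4, the widest spread of the 5 relatives measured, with library 4 the lowest. Its slope was -0.20 ± 0.04 per labelled hour on the log2 scale (SE, n = 4; 95% interval -0.29 to -0.11), with an unadjusted p of 0.000616 and a limma adjusted p of 0.298, so it did not pass. Without library 3 the slope was -0.22 and passed in limma, with an adjusted p of 9.06e-05, beside 3.83% of all tested probe sets called in that setting. Library 4 then also lay below libraries 1 and 2, with a difference of -0.57 on the log2 scale and a limma adjusted p of 0.000304, beside 6% of all tested probe sets. The shares of 3.83% and 6% count calls in either direction. Over all settings other than the one without library 3, the limma adjusted p of the slope ran from 0.262 to 0.949. AIMP1 had 230.5, 223, 219 and 215, also lower at each step, but within a factor of 1.07. AIMP3 had 182, 193, 168 and 186, lowest in library 3. alpha-PheRS and beta-PheRS, which form 1 enzyme, had 191, 202, 202 and 177 and 361, 348, 384 and 372, with the lowest value in library 4 for the alpha and in library 2 for the beta subunit. SLIMP, a synthetase-like mitochondrial protein gene, was not analysed here. With all 4 libraries, 0 of the 5 relatives passed for variability or in any comparison of 1 library with the other 3 in limma.

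**Figure D4:**
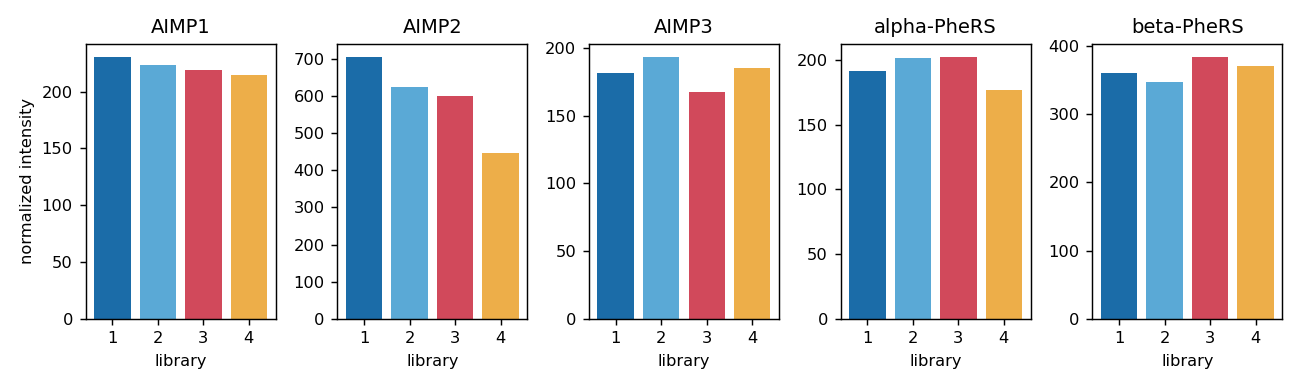
Normalized intensity (linear axis from 0, scaled per gene) of the scaffold genes AIMP1, AIMP2 and AIMP3 and of the subunit genes alpha-PheRS and beta-PheRS, with 1 bar per library in labelled order and no error bars, since each bar is 1 array. AIMP2 is at 705 in library 1 and 446 in library 4, and the other genes keep within a factor of 1.15.

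Genes of the amino acid starvation response also gave no call. Of 22 listed genes, 16 were measured and 14 tested; eIF2alpha, eIF2gamma, Thor, Asns, Phgdh and Psat were not analysed here. For variability, single libraries and the slope, 0 of 14 passed in limma, and 3 had an unadjusted p under 0.05 in some test, beside 2.05% to 11.6% of all tested probe sets in each single test. P5CS, a proline synthesis gene, was on the low side in library 3, and aay, a serine synthesis gene, in library 4. path, an amino acid transporter gene, had such a p for variability, for library 4 and for a slope below 0. Gcn2, the kinase that senses uncharged tRNA, had 33.9, 30.7, 30.2 and 29.5 in libraries 1, 2, 3 and 4, below the median control in each, so this array gave no reading of it above background. crc, the fly ATF4 gene, was above the highest control at 1901, 2034, 1992 and 1888. PEK, the kinase that responds to stress of the endoplasmic reticulum, had 154, 161, 166 and 162, and PPP1R15, whose product helps to reverse eIF2alpha phosphorylation, had 199, 198, 199.7 and 201. path had the largest spread of the list at 432, 444, 372 and 329.7, lowest in library 4. Its slope of -0.14 ± 0.04 did not pass (SE, n = 4; limma adjusted p = 0.304). eIF2beta (746, 813, 726 and 736) and Got1 (287, 302, 269.6 and 267), a translation initiation factor and an aspartate aminotransferase gene, lay in the middle of the list for spread, and both were highest in library 2. In all, 8 of 14 tested genes of this list were highest in library 2, beside 26.8% of all tested probe sets.

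The factors that use, carry or mature tRNA gave no call either. Of 21 listed genes, 14 were measured and 11 tested, and the rest, eEF1alpha1, eEF1beta and eEF2 among them, were not analysed here. In limma 0 of 11 passed any test. At an unadjusted p under 0.05 there was 1 gene, eEF1alpha2, on the low side in library 3 and with a slope below 0; it encodes a form of the factor that brings charged tRNA to the ribosome. Of all tested probe sets 6.46% had such a p in library 3 and 11.6% for the slope. It had the largest spread, with 272, 253, 210.3 and 230.3 in libraries 1, 2, 3 and 4. Elp3, which encodes the catalytic subunit of a tRNA-modifying complex, had the median spread, with 96.1, 99.7, 107 and 101. GatA, a subunit gene of the amidotransferase that completes mitochondrial glutaminyl-tRNA in mammals, where no mitochondrial GlnRS exists, had 242, 261, 242 and 258. The mitochondrial elongation factor genes mEFTu1 and mEFTu2 had 302, 324, 281 and 269 and 211, 199.5, 223 and 203; mEFTu1 was highest in library 2 and mEFTu2 in library 3.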

How the data were processed

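Samples of total RNA from whole flies were measured on one-colour Affymetrix arrays, 1 sample per array. The deposited intensity values, on a linear scale, were normalized by the authors with DNA-Chip Analyzer (dChip) through an invariant set of probes, per the labels. The sources used here do not give its version or background model. Changes shared by most genes would be lost in this step. Arrays give no depth, and their number, 4, limits the precision.

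Of 13966 probe sets (44 controls set aside), 12443 named 1 gene, 327 several and 1196 none; 12394 symbols were updated through RefSeq's table for Release 6 plus ISO1 MT, and no coordinates were used. A floor was set at the 20th percentile (57.1) before log2 values were computed, and a mean over the 40th percentile admitted 8379 probe sets to testing, with limma 3.58.1 and statmod 1.5.0 under R 4.3.3. A variance test (squeezeVar, robust, intensity-trended, prior of 7.26 degrees of freedom) and two-sided robust, trended limma fits ran over the whole table with Benjamini-Hochberg adjustment at 0.05. The fits were tested on simulated data. The members, lists and tests were chosen with earlier results of these data known. Named are all members and, of each further list, the genes of largest and median spread; Gcn2, crc, PEK, PPP1R15, GatA, mEFTu1, mEFTu2, P5CS and aay were added after their values were seen. Settings tried as alternatives are given in the closing section.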

Additional observations from a re-analysis of the deposited data

Results flagged for a closer look

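In 3 of 71 sets of 4 values checked, over the synthetase genes, their dimmer probe sets, the related lists and the class medians, 1 library lay far from the others by Dixon's criterion at the 95% level; chance alone gives about 1 in 20. The dimmer probe set of TyrRS had 286 in library 3 against 236 to 241 in the other libraries. eEF1gamma, a subunit gene of the elongation factor 1 complex, had 2874 in library 2 against 2701 to 2723. Trm7-34, a tRNA methyltransferase gene, had 139 in library 4 against 144.0 to 144.1. With all 4 libraries, eEF1gamma, Trm7-34 and TyrRS (by either probe set) passed no test in limma. In library 3 the dimmer TyrRS probe set lay above the mean of the other libraries by 0.26 on the log2 scale, and the brighter one by 0.05.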

How the results depend on the processing

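The number of synthetase genes called stayed at 0 for variability and for the slope over the labelled hour under every alternative run: quantile normalization, median centring, a lower floor (5th percentile) or an offset instead of one, a stricter filter (60th percentile) or none, each library left out in turn, the mean of a gene's probe sets, a prior that was not robust or had no trend and, for the slope, the last 2 labelled hours against the first 2. It also stayed at 0 for each library against the rest, with 2 exceptions. Leaving out 1 other library moved the count for library 3 over 0 to 2 (2 without library 4) and for library 4 over 0 to 4 (4 without library 3); fewer samples enter those fits, and the spread then comes from libraries 1 and 2. The class medians kept within the SD of the 8 medians (cytosolic and mitochondrial, 4 libraries) except in library 2 with tested members only, an alternative chosen after seeing the data: the cytosolic median was 0.13 in place of 0.06, and the mitochondrial median 0.045 in place of 0, because dim genes at the floor hold a deviation of 0. The offset raised the median of all probe sets by 0.59 to 0.60 on the log2 scale in every library alike; quantile normalization and median centring moved it by at most 0.0068. The cytosolic medians kept their signs in all settings. Of 1746 recomputed values of single genes, 8 came to pass the threshold, all without library 3 or 4 (6 for ArgRS, AsnRS, GlyRS, ThrRS and SerRS-m, 2 for AIMP2), and 0 reversed. Signal over background limits the account: 16 of the 30 genes did not exceed all negative controls in every library. No paired analysis was possible because there is a single group.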
